A study of Mus musculus with 12 samples.

Results

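The sites described here are places in the genome where both HOXA13 and HOXD13 were bound in the distal forelimb bud of the wild-type mouse embryo, but where no active or Polycomb histone mark was called and none of the active mark appeared when both factors were lost. Joining the HOXA13 and HOXD13 peaks that overlapped gave 33296 sites on the 19 autosomes, of which 19353 held a peak of each factor and are called shared sites. Of these, 8944, or 46.2% (95% interval 45.5 to 46.9%), overlapped no wild-type H3K27ac peak, no wild-type H3K27me3 peak and no H3K27ac peak of the mutant. They are called silent sites below, a name that stands for the absence of those called peaks only and not for a lack of activity. The members were selected on these measured overlaps, so their number and their lack of marks are a description with no test.

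HOXA13 and HOXD13 are homeodomain transcription factors made in the distal limb bud, where the digits form, and limbs that lack both do not form normal digits. H3K27ac is an acetylated histone found at active promoters and enhancers, and H3K27me3 is the methylated form deposited by the Polycomb repressive complex PRC2. A transcription factor binds many more places than the enhancers it is known to act on, and a bound place with neither mark in a given tissue cannot be assigned to active or to Polycomb chromatin from these marks.

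The study profiled protein binding and histone marks by chromatin immunoprecipitation and sequencing (ChIP-seq). HOXA13, HOXD13, H3K27ac and H3K27me3 were mapped in the distal part of E11.5 forelimbs of wild-type embryos on a mixed C57BL/6 - CD1 background. H3K27ac and H3K27me3 were also mapped in Hoxa13-/-;Hoxd13-/- embryos of that background, called the mutant, in which a neomycin cassette interrupts the Hoxa13 coding region and a lacZ reporter sits in the first Hoxd13 exon. H3K27me3 in E10.5 forelimb buds came from CD1 mice and an antibody of another supplier. Both factor antibodies were made in-house, and only the HOXA13 chromatin was cross-linked with disuccinimidyl glutarate besides formaldehyde. Binding was analysed in wild type alone, and whether embryos were pooled is not given in the sources used here.

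Each of the 7 profiles was 1 library and 1 deposited peak list, of between 17556 (E10.5 H3K27me3) and 38115 peaks (mutant H3K27ac). Read depth is unknown, since the lists hold no counts. No difference between genotypes or stages therefore has a replicate check, and no p-value is given. The intervals are Wilson 95% intervals for shares and order-statistic 95% intervals for medians. They cover the counting of sites only, and neighbouring sites are not independent. A score is the caller's value for a peak, read as -10 times log10 of its p, with 50 as the lowest value in these lists. It is used only to rank peaks within 1 list. Positions are in mm9, counted from 1. The genome and annotation at hand are of another build, so no gene or sequence is assigned to a site, and the tissue was not checked against marker genes.

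Most shared sites with neither mark in wild type also had no H3K27ac peak in the mutant. Of 9559 such sites, 8944 (93.6%, 93.1 to 94.0%) had none and 615 did. Mutant H3K27ac peaks covered 73.2 Mb of the autosomes, and the share at unmarked places without HOX13 binding was not computed. The value is therefore a description and cannot be called particular to these sites. The silent sites were the largest class of shared sites. The next was acetylated in both genotypes without wild-type H3K27me3, with 5751 sites (29.7%, 29.1 to 30.4%), and 1797 sites (9.29%) had an H3K27ac peak in wild type only (acetylation lost, in the plots). The remaining 1331 sites had wild-type H3K27me3 without wild-type H3K27ac, and 915 had both marks in wild type. By the same 3 criteria, silent sites made up 63.2% of the 11038 autosomal sites of HOXA13 alone (62.3 to 64.1%) and 50.0% of the 2905 sites of HOXD13 alone (48.2 to 51.8%). Sites with both factors were thus least often without marks. The sites were not matched for width or score here, and the silent share of shared sites was lower at high values of both (below).

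The threshold of the rule was 1 bp of overlap. The 3 silent sites closest to acetylation were on chromosome 12 at 85531477 to 85532687, 2 bp from a mutant H3K27ac peak, on chromosome 12 at 100566294 to 100567462, 3 bp from a wild-type peak, and on chromosome 4 at 123344135 to 123345339, 5 bp from a wild-type peak. The 3 shared sites kept out by the smallest overlap lay on chromosomes 12, 16 and 14, with 11, 12 and 13 bp in common with a mutant H3K27ac peak. Few sites were this near the acetylation boundary. Only 348 silent sites (3.89%) lay within 1 kb of an H3K27ac peak of either genotype, and 38 of 8163 acetylated shared sites without wild-type H3K27me3 (0.466%) had under 10% of their length in common with one. Wild-type H3K27me3, also used by the rule, lay within 1 kb of 414 silent sites (4.63%). Silent sites numbered 9753 when at least 50% of either peak had to overlap, and 8200 with marks within 1000 bp counted.

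Silent sites had lower scores for both factors than acetylated shared sites. The median HOXA13 score was 169.51 (166.29 to 172.86, quartiles 102 and 308) at silent sites, 232.8 (225.15 to 241.17) at sites acetylated in both genotypes and 303.29 (280.82 to 319.22) at sites acetylated in wild type only. The median HOXD13 score was 126.56 (123.56 to 129.4, quartiles 78.9 and 243), against 193.9 (185.25 to 200.97) and 226.44 (209.92 to 246.69) in the same classes. None of these intervals overlaps that of the silent sites. Sites acetylated only in the mutant were closer to the silent ones, with medians of 192.97 for HOXA13 (177.97 to 207.68) and 130.78 for HOXD13 (122.06 to 140.05); here only the HOXA13 intervals are apart, and this difference of -23.46 turned to 1.17 when factor peaks under a score of 100 were left out. Within its whole autosomal list, which also holds peaks of a single factor, the median silent site stood at the 61.3 percentile for HOXA13 and at the 47.9 percentile for HOXD13. Over all shared sites these medians were higher, at 67.3 and 56.0, and at sites acetylated in both genotypes they were 71.3 and 63.2.

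The share of silent sites was lower at each higher decile of HOXA13 score. In the lowest decile (scores 50.03 to 75.81) 57.2% of shared sites were silent (55.0 to 59.4%), in the fifth decile 51.3% and in the highest decile (799.7 and more) 20.6% (18.9 to 22.5%). For HOXD13 the shares were 59.0% (56.8 to 61.2%) in the lowest decile and 21.2% (19.4 to 23.1%) in the highest. The steepest steps were in the top 3 deciles, from 41.6% to 34.7% and 20.6% for HOXA13. As the silent share went down, all of the other classes but sites acetylated only in the mutant took larger shares of the top decile than of the lowest.

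**Figure D1:**
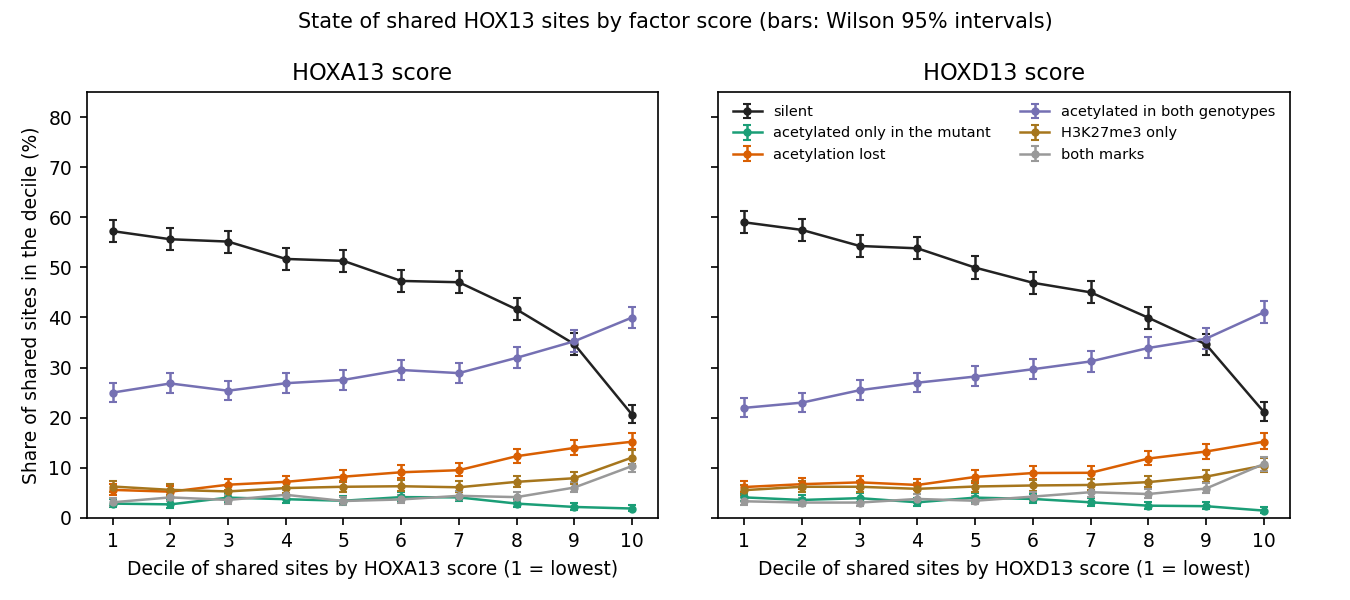
Share of the 19353 shared sites in each class (y axis, percent) against deciles of HOXA13 score (left) and of HOXD13 score (right), with Wilson 95% intervals as bars. The silent share goes from 57.2% to 20.6% over the HOXA13 deciles and from 59.0% to 21.2% over the HOXD13 deciles, and sites acetylated in both genotypes pass it in the ninth decile.

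Width moved with score and with the marks. Silent sites had a median width of 1195 bp (1190 to 1202 bp), against 1422 bp (1405 to 1437 bp) at sites acetylated in both genotypes and 1365 bp (1346 to 1383 bp) at those acetylated in wild type only, and across silent sites HOXA13 score and width had a Spearman correlation of 0.621. The silent share was 67.8% in the narrowest decile of shared sites (up to 1021 bp) and 17.6% in the widest (2028 bp and more). Shared sites of like width were therefore split at their median score, a comparison made after the values by width were seen. In the 7 narrowest deciles of width, sites of lower and of higher HOXA13 score were silent in shares with overlapping intervals, as at widths of 1204 to 1281 bp, where 50.9% (47.8 to 54.1%) of the lower-scoring sites (median score 138) and 50.0% (46.9 to 53.1%) of the higher-scoring ones (median score 329) were silent. The intervals were apart in the 3 widest deciles only: at 1512 to 1703 bp 40.4% of the lower-scoring and 32.3% of the higher-scoring sites were silent, at 1703 to 2028 bp 34.5% and 25.9%, and above that 21.2% (18.7 to 23.9%) and 13.9% (11.9 to 16.3%). For HOXD13 the intervals were apart in the 2 widest deciles, at 33.9% and 26.5% and at 20.9% and 14.3%. Within deciles of width, then, a lower silent share at higher score was seen among wide sites. The widest decile spans 2028 to 11011 bp, so width is not held there. Its higher-scoring sites by HOXA13 were also wider, with a median of 2456 bp against 2301 bp.

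The HOXA13 and HOXD13 peaks of silent sites had nearly the same midpoints. The rule required a peak of each factor in the site, so closeness was partly fixed in advance. Midpoints of peaks with median widths of 1084 bp (HOXA13) and 1116 bp (HOXD13) also do not locate the binding itself. The distance between midpoints had a median of 51 bp (49.5 to 52.5 bp), against 63 bp (60.5 to 65 bp) at sites acetylated in both genotypes. It was 54 bp (51 to 57 bp) at sites acetylated in wild type only and 48.5 bp (42 to 55 bp) at those acetylated only in the mutant. Both of these intervals overlap that of the silent sites. HOXA13 peaks were also narrower at silent sites, with a median of 1084 bp against 1261 bp at sites acetylated in both genotypes. Of the silent sites, 99.3% held 1 peak of each factor. Scores of the 2 factors had a Spearman correlation of 0.701 across the 8944 silent sites, 0.793 across sites acetylated in both genotypes and 0.837 across those acetylated in wild type only. These are descriptions across sites of the same pair of libraries, and the range of scores is narrower among silent sites.

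High factor scores without marks were nevertheless common in number. At 400 silent sites (4.47%) both scores stood in the top decile of their whole lists, and these were 21.1% (19.3 to 23.0%) of the 1897 shared sites with such scores. The corresponding share of a class was 13.5% of sites acetylated in both genotypes and 16.1% of those acetylated in wild type only. At sites acetylated only in the mutant it was 4.72%, near the share of silent sites. The 5 silent sites with the highest lower percentile of the 2 lists were all above the 99.2 percentile in each. The site on chromosome 6 at 32885236 to 32888311 had scores of 2784.88 for HOXA13 and 3034.11 for HOXD13, and its nearest acetylated peak was 77081 bp away, in wild type. The site on chromosome 12 at 118905444 to 118908108 had 2626.05 and 3100, the highest HOXD13 score of any silent site, 18433 bp from acetylation. The site on chromosome 15 at 35462029 to 35463937 had 2979.55, the highest HOXA13 score of any silent site, and 2660.85. Its nearest acetylated peak was 69174 bp away. The site on chromosome 5 at 65402507 to 65404453 had 2908.38 and 2324.2 and lay 7231 bp from a mutant H3K27ac peak and 29901 bp from a wild-type one. The site on chromosome 9 at 87603918 to 87606373 had 2235.49 and 2269.16 and lay 15361 bp from acetylation. None of these 5 overlapped an H3K27me3 peak of the mutant or of E10.5, and those on chromosomes 15, 5 and 9 lay 785, 837 and 958 bp from a wild-type H3K27me3 peak.

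Silent sites were mostly far from called acetylation. The median distance to the nearest wild-type H3K27ac peak was 36320.5 bp (34891 to 37862 bp, quartiles 12011 and 106674 bp), and to the nearest mutant peak 38172 bp (36284 to 39774 bp, quartiles 11863 and 119059 bp). To the nearest H3K27ac peak of either genotype the median was 28614 bp (27233 to 30002 bp). Within 10 kb of such a peak lay 26.7% of silent sites (25.8 to 27.6%), while 2010 (22.5%) were over 100 kb away, 412 over 500 kb and 118 over 1 Mb. The 5 farthest were on chromosomes 1 and 6. The farthest, on chromosome 1 at 27854467 to 27856279, lay 2978743 bp from acetylation and had scores of 860.13 for HOXA13 and 676.5 for HOXD13. The next pair, on chromosome 1 at 148931459 to 148932489 and 149120334 to 149121383, lay 2776866 and 2621596 bp away with HOXA13 scores of 81.19 and 136.98. The last pair, on chromosome 6 at 104067256 to 104068391 and 103939328 to 103940410, lay 2474777 and 2469498 bp away with HOXA13 scores of 111 and 86.79.

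The distances were longer than at shared sites acetylated in a single genotype. Sites acetylated only in the mutant also lack a wild-type H3K27ac peak, and their median distance to the nearest one was 11438 bp (9791 to 13294 bp). Within 10 kb of a wild-type H3K27ac peak lay 46.7% of them (42.8 to 50.6%) and 21.8% of silent sites (21.0 to 22.7%). Sites acetylated in wild type only lack a mutant peak, and their median distance to the nearest mutant H3K27ac peak was 21807 bp (20453 to 23447 bp). Within 10 kb of a mutant H3K27ac peak lay 32.0% of them (29.9 to 34.2%) and 22.1% of silent sites (21.2 to 22.9%). Shared sites with wild-type H3K27me3 but no wild-type H3K27ac were closer to the silent ones in this respect. Their median distance to wild-type H3K27ac was 32133 bp (29092 to 35544 bp), and this interval overlaps that of the silent sites (34891 to 37862 bp). Long distances to wild-type acetylation were thus not particular to silent sites. All of these values are a description, since the rule used the same lists.

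**Figure D2:**
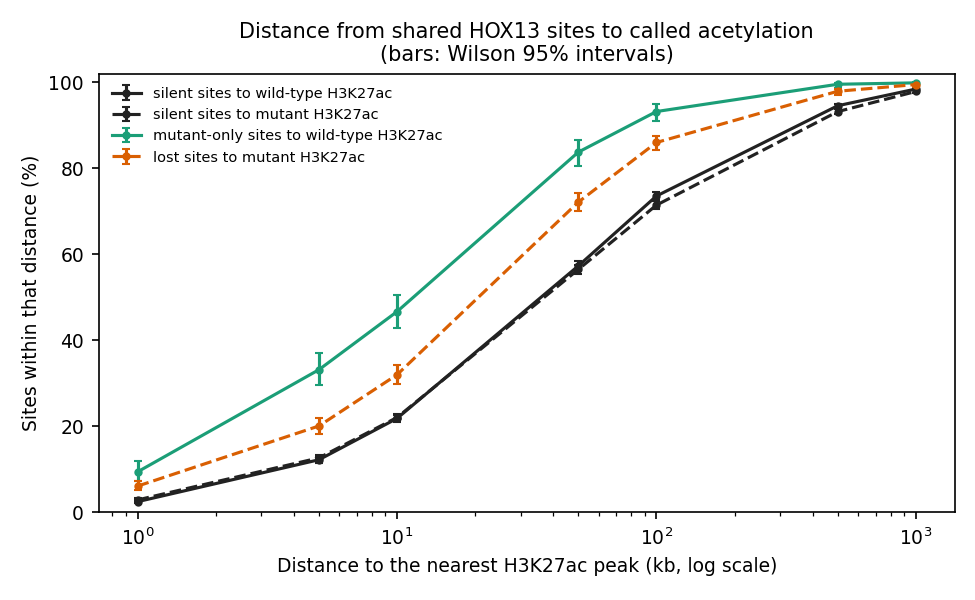
Cumulative share of sites (y axis, percent) within a given distance of an H3K27ac peak (x axis, kb, log scale), with Wilson 95% intervals as bars. The black lines of silent sites run together for wild-type and mutant H3K27ac, at 21.8% and 22.1% within 10 kb, below the sites acetylated only in the mutant (46.7%) and the sites acetylated in wild type only (32.0%).

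Distance did not follow the factor scores closely. By quintiles of HOXA13 score among silent sites, the median distance to any H3K27ac peak was 27431, 25984, 28450.5, 29934 and 30639 bp from the lowest to the highest quintile, with overlapping intervals for the lowest and the highest quintile (24592 to 30594 and 27227 to 33431 bp). Spearman correlations of distance with the HOXA13 and the HOXD13 score were 0.040 and 0.045 across 8944 sites. The 400 sites in the top decile of both lists were farther away, at a median of 38155 bp (31033 to 45586 bp) against 28098 bp (26677 to 29492 bp) for the other 8544.

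The wild-type and the mutant H3K27ac peak nearest to a silent site often overlapped each other. For 4880 silent sites (54.6%, 53.5 to 55.6%) the nearest wild-type and the nearest mutant H3K27ac peak overlapped each other, and these sites were nearer to acetylation (median 27879 bp to the wild-type peak) than the other 4064 (50536.5 bp). Over those 4064, the wild-type peak was the nearer for 2055 and the mutant peak for 2009. These counts do not give the share of nearest peaks with a counterpart in the other genotype.

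Acetylated peaks without a HOX13 peak of their own were then counted around silent sites. Of 1020 unbound autosomal wild-type H3K27ac peaks within 10 kb of a silent site, 173 had no overlapping mutant peak (17.0%, 14.8 to 19.4%). The share was 11.2% over all unbound autosomal peaks and 10.9% (10.4 to 11.4%) for those over 10 kb from any shared site. It was 22.5% near sites acetylated in wild type only, 12.6% near those acetylated only in the mutant and 10.2% near those acetylated in both genotypes. Peaks near silent sites had lower scores, with a median of 166 against 363 for the far ones. Within ranges of score the shares were alike: 39.3% (34.1 to 44.7%) near silent sites and 35.2% (33.6 to 36.8%) far away at scores of 50 to 100, and 16.8% (12.6 to 22.1%) and 15.9% (14.5 to 17.3%) at 100 to 200. Mutant H3K27ac peaks gave a similar picture. Of 1515 unbound ones within 10 kb of a silent site, 670 had no wild-type peak (44.2%, 41.7 to 46.7%), against 37.5% over all unbound autosomal peaks and 33.9% over 10 kb from any shared site. The share was no lower near the other classes: 44.4% near sites acetylated in wild type only, 52.3% near those acetylated in both genotypes and 62.8% near those acetylated only in the mutant. At mutant scores of 50 to 100 the near and far shares were 76.2% (72.6 to 79.5%) and 78.2% (77.1 to 79.3%).

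H3K27me3 of the mutant and of E10.5 limb buds was not used to choose the sites. Of the 8944 silent sites, 80 overlapped a mutant H3K27me3 peak, or 0.894% (0.719 to 1.11%). Over all 17107 shared sites without wild-type H3K27me3 the share was 0.970%, so silent sites were near this background. Sites acetylated in wild type only had a higher share, 1.89% (1.36 to 2.63%, 34 of 1797), and sites acetylated in both genotypes 0.835% (0.630 to 1.10%). The difference of -0.998 percentage points from sites acetylated in wild type only was -0.530 with at least 50% of either peak in overlap and -0.587 with marks within 1000 bp counted. For comparison, 70.1% of the 2246 shared sites with wild-type H3K27me3 also had a mutant peak.

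E10.5 H3K27me3 peaks overlapped 67 silent sites, or 0.749% (0.590 to 0.950%), against 1.19% over all shared sites without wild-type H3K27me3. The share was higher at sites acetylated in both genotypes, 1.88% (1.56 to 2.26%), and at sites acetylated only in the mutant, 2.11% (1.24 to 3.58%), and similar at sites acetylated in wild type only, 0.835% (0.507 to 1.37%). The difference of -1.13 percentage points from sites acetylated in both genotypes shrank to -0.117 when at least 50% of either peak had to overlap. Stage, strain, dissected tissue and antibody all differed between this library and the E11.5 ones and cannot be told apart.

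Many of the few silent sites with such peaks lay near wild-type H3K27me3 peaks. Of the 80 with mutant H3K27me3, 43 lay within 1 kb of a wild-type H3K27me3 peak, and the mutant peak covered a median of 19.6% of the site. Of the 67 with E10.5 H3K27me3, 30 lay within 1 kb, the median distance was 1685 bp and the median coverage was 42.6%, with 9 sites wholly covered. The 3 with the highest mutant H3K27me3 score were on chromosome 10 at 39641575 to 39642966 (peak score 3100, 93 bp in common), on chromosome 3 at 84055449 to 84057458 (3100, 1054 bp) and on chromosome 11 at 25946378 to 25947387 (2843.17, 4 bp). The 3 with the highest E10.5 score were on chromosome 9 at 34290707 to 34291764 (2593.46, 592 bp), on chromosome 5 at 145311247 to 145312215 (780.57, 614 bp) and on chromosome 2 at 104892497 to 104893489 (760.61, the whole site). Only 9 silent sites overlapped both a mutant and an E10.5 peak.

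High-scoring silent sites more often had wild-type H3K27me3 beside them, as did high-scoring acetylated sites (below). Over all silent sites, 414 (4.63%, 4.21 to 5.08%) lay within 1 kb of a wild-type H3K27me3 peak without overlapping it. By quintiles of HOXA13 score the share was 1.96% (1.41 to 2.71%), 3.30%, 3.47%, 4.92% and 9.50% (8.23 to 10.9%) from lowest to highest, and in the 400 sites in the top decile of both lists it was 16.25% (13.0 to 20.2%), against 4.08% (3.69 to 4.53%) in the other silent sites. The top 400 were also wider, with a median of 1719 bp against 1182 bp. Wild-type H3K27ac showed no such step: 2.79%, 3.07%, 2.07%, 2.12% and 2.46% of silent sites lay within 1 kb of it over the same quintiles, and 2.50% of the top 400. At 1 to 2 kb from a wild-type H3K27me3 peak the shares of the top 400 and of the others were 3.25% (1.91 to 5.48%) and 1.84% (1.57 to 2.14%), and at 2 to 5 kb 3.50% and 3.65%, so the difference lay within the nearest 1 kb.

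**Figure D3:**
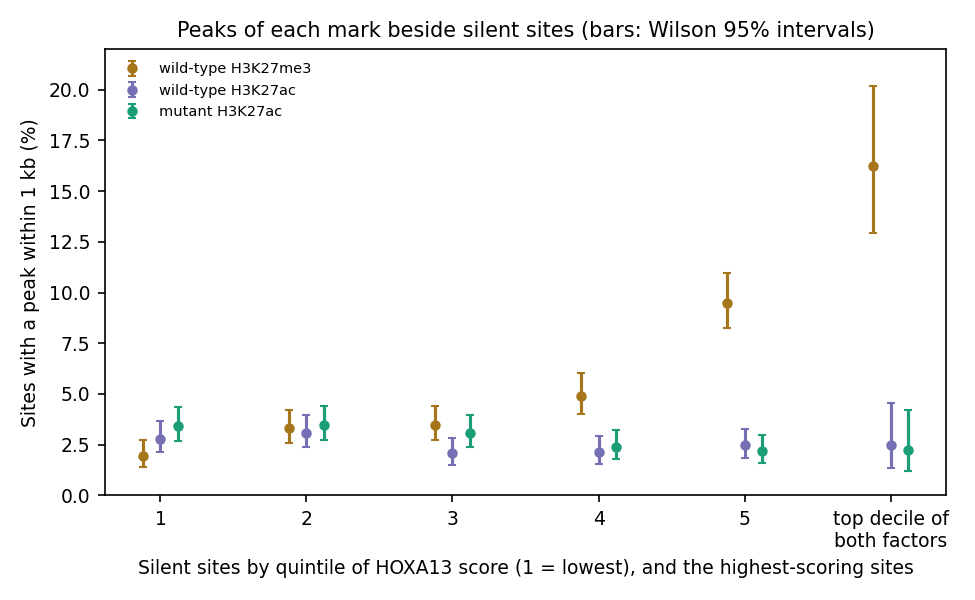
Share of silent sites (y axis, percent) with a peak of each mark within 1 kb, by quintile of HOXA13 score and for the 400 sites in the top decile of both factor lists (x axis), with Wilson 95% intervals as bars. Wild-type H3K27me3 goes from 1.96% in the lowest quintile to 9.50% in the highest and 16.25% in the top 400, while both H3K27ac lists stay between 2.07% and 3.47%.

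Some of these sites stood in a gap between H3K27me3 peaks. Among the top 400, 31 (7.75%, 5.51 to 10.8%) had a wild-type H3K27me3 peak within 5 kb on both sides, against 142 of the other 8544 (1.66%, 1.41 to 1.96%). In the same score range this held for 20 of 776 sites acetylated in both genotypes (2.58%, 1.67 to 3.95%), 9 of 290 acetylated in wild type only (3.10%, 1.64 to 5.79%) and 5 of 29 acetylated only in the mutant (17.2%, 7.60 to 34.5%), and only the first of these intervals is apart from that of the silent sites. The shares within 1 kb were lower at sites of the same score range acetylated in both genotypes, 5.93% (4.47 to 7.82%, 46 of 776), and in wild type only, 8.62% (5.91 to 12.4%, 25 of 290), neither interval overlapping that of the silent sites. At such sites acetylated only in the mutant it was 13.8%, 4 of 29. Outside that score range the shares within 1 kb were 3.32% (acetylated in both genotypes), 1.53% (in wild type only) and 3.92% (only in the mutant). A higher share at high score was thus seen in these classes too, though the intervals overlap for sites acetylated only in the mutant. Wild-type H3K27me3 was used by the rule, so these shares are a description.

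The H3K27me3 peaks beside silent sites were often absent from the mutant list. Of 489 wild-type H3K27me3 peaks within 1 kb of a silent site, 219 had an overlapping mutant peak (44.8%, 40.4 to 49.2%). Over all 19624 autosomal wild-type H3K27me3 peaks the share was 69.6%. Beside the top 400 sites it was 32.9% (23.7 to 43.7%, 27 of 82). Scores differed as well, with a median of 180 beside silent sites and 377 over all peaks, so the peaks were compared within ranges of score. At scores of 50 to 100 the shares were alike, 26.5% (19.7 to 34.6%) beside silent sites and 28.0% (26.6 to 29.6%) over 1 kb from any HOX13 site. At 100 to 200 they were 33.1% (25.5 to 41.6%) and 47.8% (45.9 to 49.7%), at 200 to 500 38.1% (29.6 to 47.3%, 43 of 113) and 75.7% (74.0 to 77.3%), and at 500 and more 84.6% (99 of 117) and 98.1% (97.8 to 98.4%). In the upper 3 ranges the intervals do not overlap.

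At scores of 100 and more, wild-type H3K27me3 peaks at or beside other shared sites lay between these values, and at 50 to 100 their share was 30.3% (25.3 to 35.8%). With a score of 200 to 500, 62.3% of them had a mutant peak (57.7 to 66.6%, 282 of 453), and with 500 or more 87.3% (85.6 to 88.8%). The difference between peaks beside silent and at or beside other shared sites at scores of 200 to 500 was -24.2 percentage points; in the other ranges the intervals overlap. Peaks of this second kind may overlap the site itself, which peaks beside silent sites cannot. The difference from peaks away from HOX13 sites in that range, -37.6 points, was -7.32 with all chromosomes included; 9251 of the 28875 wild-type peaks but 385 of the 19358 mutant ones were not autosomal. Depth, enrichment and the embryos behind each library are not known and cannot be told apart from genotype.

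**Figure D4:**
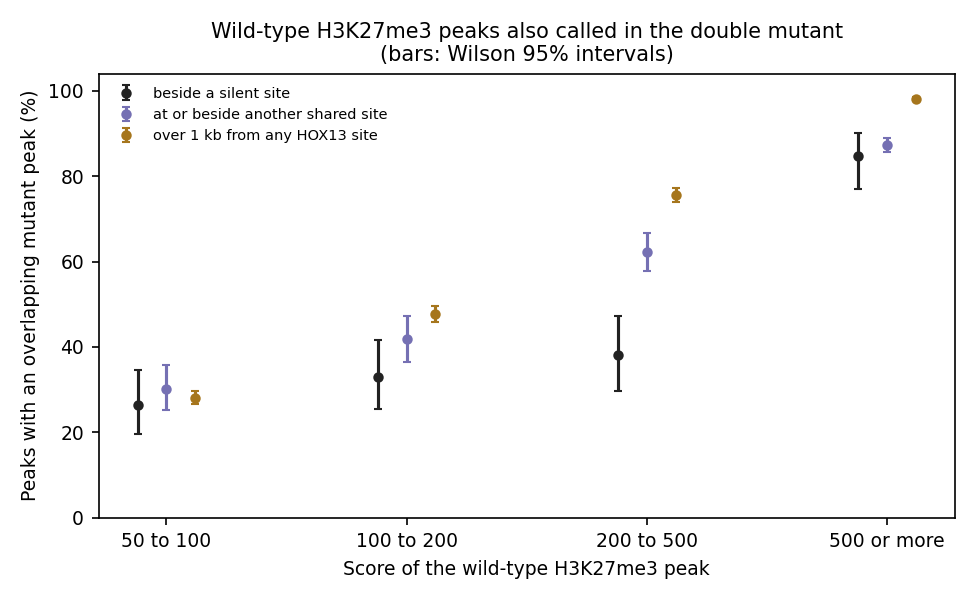
Share of autosomal wild-type H3K27me3 peaks that overlap a mutant H3K27me3 peak (y axis, percent) by score of the wild-type peak (x axis) and by place, with Wilson 95% intervals as bars. At scores of 200 to 500 the share is 38.1% within 1 kb of a silent site, 62.3% at or beside another shared site and 75.7% over 1 kb from any HOX13 site.

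The E10.5 list showed the same order. Of the wild-type H3K27me3 peaks within 1 kb of a silent site, 21.5% (18.1 to 25.3%) overlapped an E10.5 H3K27me3 peak, against 49.8% of all autosomal ones, and beside the top 400 it was 4.88% (1.91 to 11.9%). At scores of 200 to 500 13 of 113 peaks beside silent sites had one (6.85 to 18.7%), against 28.7% (24.7 to 33.0%) at or beside other shared sites and 37.7% (35.9 to 39.6%) away from HOX13 sites. In that range of score, peaks beside silent sites thus overlapped a mutant peak, and an E10.5 peak, less often than peaks elsewhere, with intervals that do not overlap.

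The shared site nearest to a silent site was silent more often than the 46.2% of all shared sites. The nearest other shared site was silent for 58.7% of them (57.6 to 59.7%), for 45.9% of sites acetylated in wild type only (43.6 to 48.2%), for 37.7% of sites acetylated only in the mutant (34.0 to 41.6%) and for 30.4% of sites acetylated in both genotypes (29.3 to 31.6%). When the neighbour was under 5 kb away the shares were 63.2%, 39.2%, 35.5% and 16.6%. At gaps of 100 kb or more they were 62.1%, 48.4%, 43.5% and 42.3%. The density of shared sites differed too: the gap to the nearest shared site had a median of 26604.5 bp at silent sites (25571 to 27748 bp) and of 16851 bp at sites acetylated in both genotypes (16016 to 17713 bp). Neighbours were classed by the same mark lists that chose the silent sites, and a wide peak can overlap adjacent sites. The shares by nearest site are therefore a description.

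**Figure D5:**
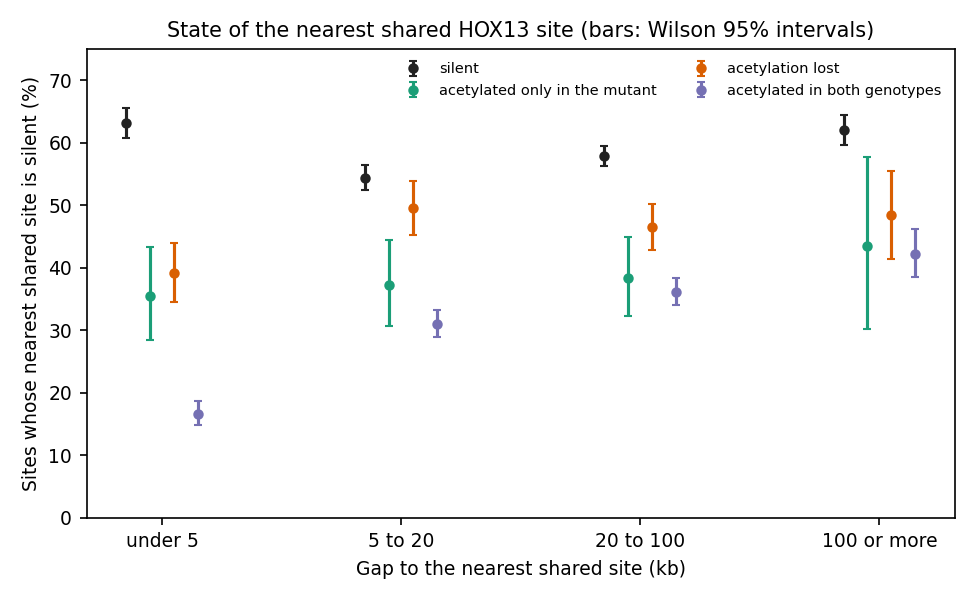
Share of sites whose nearest shared site is silent (y axis, percent) by gap to that site (x axis, kb) and by class of the site itself, with Wilson 95% intervals as bars. Under 5 kb the share is 63.2% for silent sites and 16.6% for sites acetylated in both genotypes, and at 100 kb or more 62.1% and 42.3%.

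Taken in order along the chromosomes, silent sites formed 3741 runs uninterrupted by another shared site, of which 1807 held a single site. Runs of 5 or more held 3261 silent sites (36.5%). With 46.2% of all shared sites silent, runs also arise in any order of sites, and whether these exceeded that was not tested. The longest had 25 sites over 1600 kb of chromosome 3 (149148205 to 150747971), a stretch with 2 wild-type and 2 mutant H3K27ac peaks, and its highest HOXA13 score was 893.6. The next had 23 sites over 5952 kb of chromosome 5 (58273908 to 64225738), with 1 wild-type and 2 mutant H3K27ac peaks. Of 4 runs of 19 sites tied for the third place, the first by chromosome and start, as text, was on chromosome 16 at 26999288 to 29689182, with 12 H3K27ac peaks in each genotype. Another, on chromosome 8 at 43128301 to 45404126, held no H3K27ac peak of either genotype within 2276 kb, and its highest HOXA13 score was 1323.95; it was named after its values were seen.

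Counts in windows of 1 Mb also follow how many shared sites a window holds, and 46.2% of all shared sites were silent. The most silent sites were at 117 to 118 Mb of chromosome 8 (24 of 37 shared sites), at 149 to 150 Mb of chromosome 3 (22 of 23) and, tied with 143 to 144 Mb of chromosome 3 (21 of 29), at 55 to 56 Mb of chromosome 18 (21 of 47, or 44.7%, under the autosomal share). The last of these was rich in acetylation, with 29 wild-type and 36 mutant H3K27ac peaks, whereas the window at 149 Mb of chromosome 3 held 2 and 1. Among 824 windows with 10 or more shared sites, the silent share had a median of 41.7%, was 80% or more in 49 and was 0 in 11. By chromosome it lay between 37.3% (chromosome 11, 34.4 to 40.4%) and 54.4% (chromosome 3, 51.7 to 57.0%).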

How the data were processed

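The submitters' processing notes name Bowtie 0.12.7, MACS 1.4 and the mouse build mm9. The deposited peak lists give a score per peak, the authors' own value, taken here as the caller's -10 log10 p (lowest value 50, a p-value of 1e-05); each list is named for 1 library and its input, so calling was per library. In every list 6 to 16 peaks lie beyond the last base of GRCm38 chromosome 1, so that build's annotation was not used here. The 5 input libraries were not analysed here.

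Overlap was at least 1 bp, a site took the highest score of each factor's peaks, and distances run from edge to edge. Intervals were computed with Python 3.11.15 and statsmodels 0.14.6; interval functions were checked against bedtools 2.31.1 and tested on simulated data. Regions named are the 3 with the highest score of each factor, the 5 highest by the lower within-list percentile, the 5 farthest from and the 3 nearest to H3K27ac, the 3 just outside the rule, the 3 with the highest score of each other H3K27me3 list, and the 3 leading windows and runs. Shares and medians were recomputed under 7 alternative settings; sites with 1 peak of each factor, and sites over 1000 bp from wild-type H3K27me3, were added after seeing the data. Members and lists were chosen with earlier results of these data known.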

Additional observations from a re-analysis of the deposited data

How the results depend on the processing

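Over 9 alternatives, 44 of 72 recomputed values of the 8 main results stayed within their interval or within 1.5 times the count, and 23 differences between groups of sites or peaks were recomputed. Of the 19 whose intervals do not overlap, 18 kept their direction in every alternative that gave a value. The exception among them was the median HOXA13 score of silent sites minus that of sites acetylated only in the mutant, which was 1.17 with factor peaks of score 100 or more. The 4 differences whose intervals overlap all took both signs: HOXD13 score against sites acetylated only in the mutant (-4.22, range -4.865 to 19.54), mutant H3K27me3 against sites acetylated in both genotypes (0.0598 points, -0.0356 to 0.223) and only in the mutant (0.244, -0.892 to 0.773), and E10.5 H3K27me3 against sites acetylated in wild type only (-0.0856, -0.385 to 0.148). A factor minimum of 100 gave 4947 silent sites (40.6% of shared sites), median distances of 38017 bp to wild-type and 39885 bp to mutant H3K27ac, and median scores of 272.32 for HOXA13 and 222.21 for HOXD13. Raising the minimum to 100 for the marks as well gave 5821 sites (47.8%), 47580 and 51238 bp, scores of 277.93 and 225.38, and 0.498% with E10.5 H3K27me3. With 50% overlap the share was 50.5%, the distances 34889 and 35810 bp, the scores 174.7 and 130.67, and 0.554% had E10.5 H3K27me3. Counting marks within 1000 bp gave 42.4%, 38844.5 and 41028 bp, and 1.27% with mutant H3K27me3. Lists of equal length gave 47.3% and 46093.5 bp to mutant H3K27ac. Sites over 1000 bp from wild-type H3K27me3 gave 52.0%, with 0.434% for mutant and 0.434% for E10.5 H3K27me3. In the wild-type H3K27me3 peaks beside silent sites, the comparison by score could not be made where such peaks were left out by the setting. No paired analysis was possible because each group holds 1 library. Unknown read depth limits every absence of a peak: a mark below the caller's threshold cannot be told apart from no mark.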

Other observations

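On the X chromosome, left out above, 80 of 220 shared sites were silent by the same criteria (36.4%, 30.3 to 42.9%), against 46.2% on the autosomes. Wild-type H3K27me3, which keeps a site out of this class, overlapped 108 of these 220 sites (49.1%, 42.6 to 55.7%) and 11.6% of the autosomal shared sites; the wild-type H3K27me3 list holds 9251 peaks outside the autosomes and the mutant list 385. Its part in the lower share was not tested. Among windows of 1 Mb with 10 or more shared sites, 5 with only silent sites were at 103 to 104 Mb of chromosome 10 (11 of 11), 47 to 48 Mb of chromosome 5 (11 of 11), 25 to 26 Mb of chromosome 11 (10 of 10), 69 to 70 Mb of chromosome 12 (10 of 10) and 117 to 118 Mb of chromosome 14 (10 of 10). They held between 0 and 2 H3K27ac peaks of either genotype, and the windows on chromosomes 11 and 12 held 6 wild-type H3K27me3 peaks each. At the other end, none of 22 shared sites at 23 to 24 Mb of chromosome 13 was silent, in a window with 42 wild-type H3K27ac peaks, nor any of 14 at 18 to 19 Mb of chromosome 11, where 6 wild-type H3K27ac and 37 wild-type H3K27me3 peaks were called. These windows were chosen after their values were seen.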
